A study of Debaryomyces hansenii with 6 samples.

Results

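A set of 60 of the 6320 genes on the array was near its starting level 0.5 h after salt was added to Debaryomyces hansenii and was lowered at both 3 h and 6 h. Members were chosen by their mean log2 ratios of stressed over control RNA. The mean of the 2 arrays had to lie above -0.4 and below 0.5 at 0.5 h and at or below -0.6 at 3 h and at 6 h, and every 3 h and 6 h array had to be negative. The values below that enter this rule describe how the set was chosen and are no test of it. Of the members, 56 had a locus name.

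The stressed groups were cells grown to early log phase in rich glucose medium (YPD) at 30 °C and exposed to 2 M NaCl for 0.5, 3 or 6 h. The control was an aliquot of the culture frozen at time 0, before the salt. The labels name neither a strain nor a mutation, and there was no untreated culture of a later time, so the effects of salt and of time in culture cannot be told apart. Each time was covered by 2 Agilent 2-colour arrays with different biological replicates of both RNAs. Stressed RNA was labelled with Cy5 in replicate 1 but with Cy3 in replicate 2, so dye orientation and replicate are the same split. In such bulk RNA, fewer cells of a kind and less RNA per cell cannot be told apart.

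Debaryomyces hansenii is a salt-tolerant yeast known from sea water, brines and cheese. In yeasts, a sudden rise in osmolarity draws water from the cell, activates the HOG mitogen-activated protein kinase pathway and leads to the build-up of glycerol as a compatible solute. Early changes in transcripts of such cells often fade as volume and turgor recover. The set described here was drawn by a bound at 0.5 h, and whether it forms a separate class was not tested. Which proteins the members encode cannot be given, since the array files describe each gene as unknown and the reference table pairs accessions with locus names only.

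All 60 members passed the filter on dim probes that left 5966 genes for testing. The share of gene probes well above background was 76.4% to 91.9% for stressed RNA and 62.4% to 93.4% for control RNA. The SD of the log2 ratios over tested genes ran from 0.31 on the 0.5 h array of replicate 1 to 0.63 on the 3 h array of replicate 2. The 3 h array of replicate 1 stood apart in its spike-in transcripts, with a slope of observed on stated log ratios of 0.295 against 0.788 to 0.926 on the other arrays. The members' median log2 ratio was -0.84 on that array and -0.89 on the other 3 h array. With 2 arrays per time, their number limits the precision of every ratio.

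The members went from a median log2 ratio of -0.17 at 0.5 h to -0.89 at 3 h and -0.81 at 6 h, beside 0.00, -0.01 and 0.00 over all tested genes. At 0.5 h the median over members was -0.21 on the array of replicate 1 and -0.12 on that of replicate 2. At 6 h it was -0.62 in replicate 1 and -1.01 in replicate 2. Of the 60 members, 50 were lower in replicate 2 than in replicate 1 at 6 h, while 51.1% of the tested genes were. The SD over tested genes was 0.42 on the 6 h array of replicate 1 and 0.56 on that of replicate 2, and its part in this difference was not tested. At 3 h 35 members were lower in replicate 2, and at 0.5 h 28 were.

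**Figure D1:**
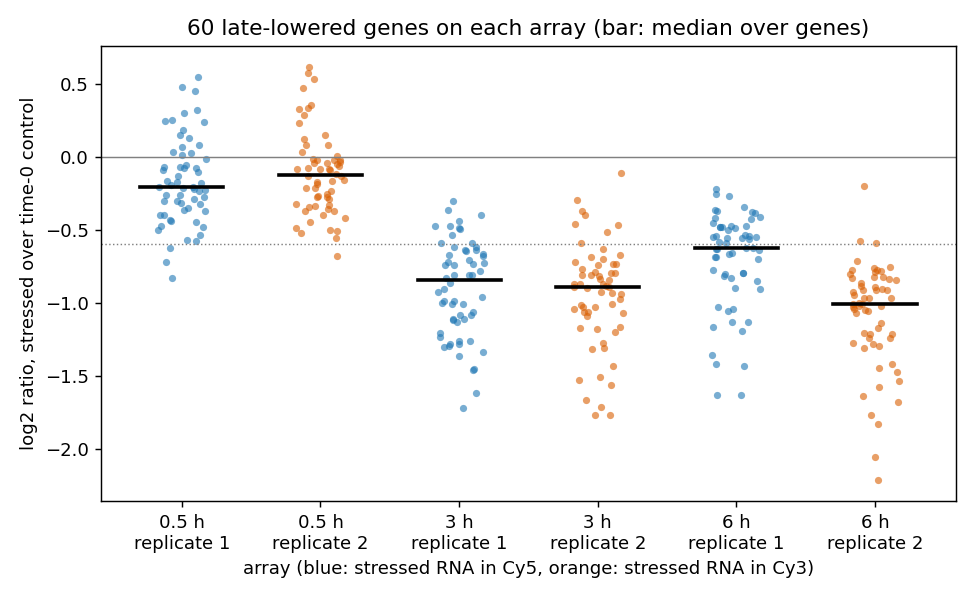
Log2 ratios of the 60 members, stressed over time-0 control, on each of the 6 arrays; each point is a gene, bars are medians over genes, the dotted line marks -0.6 and colours mark the dye of the stressed RNA. The medians are -0.21 and -0.12 at 0.5 h, -0.84 and -0.89 at 3 h, and -0.62 and -1.01 at 6 h.

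These levels depended on how brightness was normalized. The ratios were normalized by loess, which removes a trend of the ratio with spot brightness. With each array centred on its median and no loess, the members' median on the 0.5 h array of replicate 2 was 0.38 in place of -0.12. On the other 0.5 h array it was -0.20, close to the value with loess. At the later times the medians without loess were -0.83 and -1.28 at 3 h and -0.36 and -0.72 at 6 h. Of the 60 members, 60 were still negative on each 3 h array, 58 on the 6 h array of replicate 1 and 59 on that of replicate 2. Without loess 50 genes met the rule, and 25 of them were among the 60.

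By the mean of 3 h and 6 h, DEHA2A02090g was the lowest member with a locus name. Its log2 ratio was 0.48 and -0.34 on the 0.5 h arrays of replicates 1 and 2, -1.72 and -1.77 at 3 h, and -1.63 and -1.31 at 6 h. All 4 later arrays lay more than a log2 unit below zero and below both 0.5 h arrays, which had opposite signs. The mean was -1.74 ± 0.04 at 3 h and -1.47 ± 0.22 at 6 h (SD, n = 2), which at 6 h is 2.77-fold below the control. Its stressed spots read 354.5 and 467 at 3 h against control spots of 889.5 and 3679, before background correction and normalization.

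DEHA2F09262g was nearly as low. It read -0.28 and -0.49 at 0.5 h, -1.62 and -1.77 at 3 h, and -0.66 and -2.21 at 6 h. The 3 h arrays were close together, whereas the 6 h arrays were far apart, with means of -1.69 ± 0.11 and -1.44 ± 1.10 (SD, n = 2). This 6 h SD was the largest among the 60 members.

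DEHA2C04268g was lower at each later time in both replicates. Its log2 ratios were -0.30 and -0.36 at 0.5 h, -1.26 and -1.03 at 3 h, and -1.42 and -1.83 at 6 h. The 6 h mean was 3.08-fold below the control, with an SD of 0.29 on the log2 scale (n = 2).

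DEHA2C06072g had the lowest 6 h mean of the set, -1.84 ± 0.30 (SD, n = 2), or 3.58-fold below the control. Its log2 ratios were 0.24 and -0.24 at 0.5 h, -1.01 and -0.47 at 3 h, and -1.63 and -2.05 at 6 h. It gave the brightest control spots among the members, with readings from 4414 to 25698 over the 6 arrays. Without loess its 3 h ratios were -1.56 and -1.47 and its 6 h ratios -1.06 and -1.40, so that under that scaling both replicates were higher at 6 h than at 3 h.

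**Figure D2:**
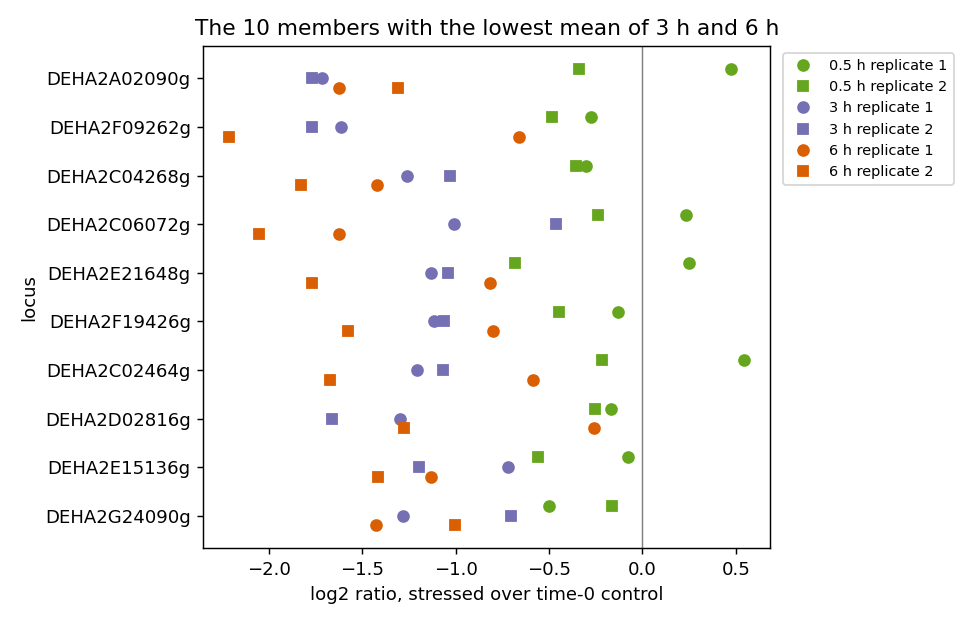
Log2 ratios of stressed over time-0 control on each array for the 10 members with a locus name and the lowest mean of 3 h and 6 h; circles are replicate 1, squares replicate 2, and colours are times. The 3 h and 6 h arrays of all 10 loci lie below both of their 0.5 h arrays, and DEHA2F09262g has the widest 6 h gap, from -0.66 to -2.21.

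The other 6 of the 10 lowest loci had similar means of 3 h and 6 h, from -1.19 to -1.10. DEHA2E21648g read -1.13 and -1.04 at 3 h and -0.81 and -1.77 at 6 h, after 0.25 and -0.68 at 0.5 h. DEHA2F19426g read -1.11 and -1.06 at 3 h and -0.80 and -1.58 at 6 h. DEHA2C02464g read -1.21 and -1.07 at 3 h and -0.59 and -1.67 at 6 h. In these 3 loci the 3 h arrays differed by less than 0.2, and at 6 h replicate 2 was the lower.

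DEHA2D02816g read -1.30 and -1.66 at 3 h but -0.26 and -1.28 at 6 h, so that both replicates were less lowered at 6 h. DEHA2E15136g read -0.72 and -1.20 at 3 h and -1.13 and -1.42 at 6 h. DEHA2G24090g read -1.28 and -0.70 at 3 h and -1.43 and -1.0 at 6 h. DEHA2E15136g and DEHA2G24090g were lower at 6 h than at 3 h in both replicates, and DEHA2G24090g was lower in replicate 1 than in replicate 2 at both times. The stressed signal of DEHA2E15136g at 6 h was well above background on 1 of 2 arrays.

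Over the whole set, 21 members had a mean at or below -1 at 3 h, 18 at 6 h and 7 at both. The SD between the 2 arrays of a time had a median over members of 0.16 at 0.5 h, 0.25 at 3 h and 0.28 at 6 h. In 52 members every 3 h and 6 h array lay below both 0.5 h arrays, a pattern found in 8.41% of the tested genes and favoured by the rule. In the other 8 the times overlapped. DEHA2C01320g is such a case, named after its values were seen, with -0.57 and 0.62 at 0.5 h, -1.23 and -0.81 at 3 h, and -1.13 and -0.20 at 6 h.

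Values close to the bound of -0.6 show how gradual the edge of the set was. The members nearest to it were DEHA2B05104g with means of -0.67 at 3 h and -0.60 at 6 h, DEHA2E08030g with -0.60 and -0.96, DEHA2F10054g with -0.61 and -0.73, and DEHA2D14652g with -0.61 and -0.70. Just outside lay DEHA2E15994g with -0.63 and -0.60, DEHA2G14960g with -0.89 and -0.60, DEHA2E07282g with -0.59 and -0.65, and DEHA2E11616g with -0.80 and -0.59. Of these, DEHA2F10054g was least even, at -1.11 and -0.11 on the 3 h arrays, a gap larger than its mean.

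The same 3 h and 6 h criteria with no condition at 0.5 h held for 127 genes. Besides the 60 members, 66 of them had a 0.5 h mean at or below -0.4 and 1 had a mean at or above 0.5. The 66 genes had median log2 ratios of -0.80 at 0.5 h, -0.93 at 3 h and -1.18 at 6 h, and their lowest 6 h mean was -2.48 against -1.84 in the members. The median change from 3 h to 6 h was -0.16 in those genes and 0.00 in the members. Both sets were read on the same 6 arrays, the times may share control RNA, and no test was made between the sets.

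**Figure D3:**
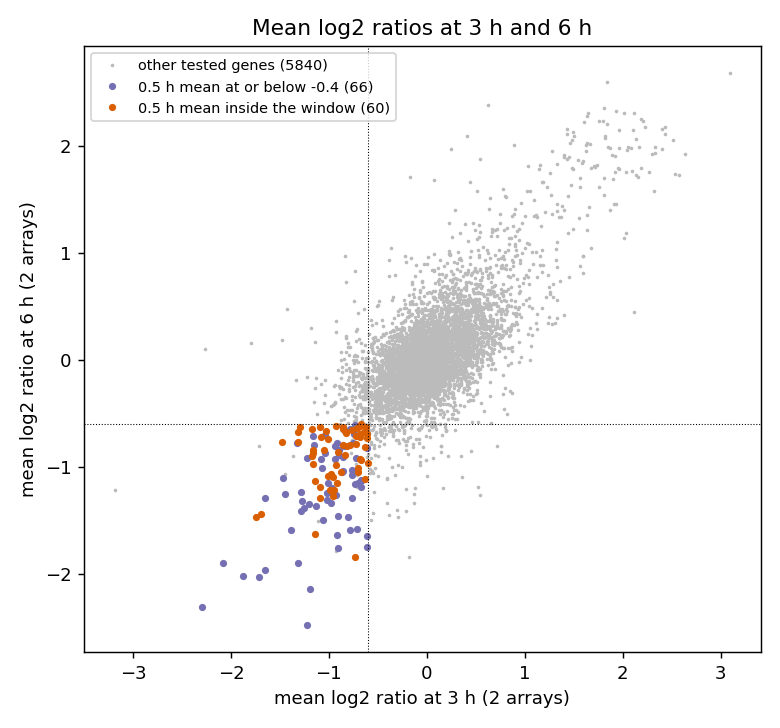
Mean log2 ratio at 6 h against that at 3 h for the tested genes, each the mean of 2 arrays; dotted lines mark -0.6. The 60 members (orange) and the 66 genes already at or below -0.4 at 0.5 h (purple) share the lower left corner, where the purple points reach -2.48 at 6 h and the orange ones -1.84.

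At 0.5 h, with loess, the members were not spread evenly around zero. The window of the rule, from -0.4 to 0.5, was itself not centred on zero. The mean was below zero in 43 and below -0.3 in 18, near the lower bound of the rule. Both 0.5 h arrays were negative in 32 members, both positive in 3, and of opposite sign in 25. The matching shares of the tested genes were not counted, so nothing is read from these counts. Without loess 45 members were negative on the 0.5 h array of replicate 1 and 9 on that of replicate 2. In limma 0 members passed an adjusted p of 0.05 at 0.5 h, where 0.0503% of the tested genes passed lower and 0.0335% higher. Across members the 0.5 h values of the replicates had r = -0.08 and rho = -0.03 (n = 60 genes, which share arrays and dyes), while over the tested genes r was 0.51 and rho 0.36 (n = 5966). The rule narrows the range of the members' values, which bears on such a comparison.

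With loess, both 0.5 h arrays were positive and every later array negative in 3 members. Without loess this also held for other members, DEHA2A02090g among them. The rule favours this pattern, and its share among the tested genes was not counted. DEHA2B12210g read 0.45 and 0.47 at 0.5 h, -0.48 and -1.43 at 3 h, and -1.19 and -1.24 at 6 h. DEHA2F15048g read 0.24 and 0.53, then -1.08 and -0.93, then -0.54 and -0.94. DEHA2E08030g read 0.13 and 0.08, then -0.61 and -0.59, then -0.90 and -1.02.

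One fit in limma over the 6 arrays, adjusted over all tested genes, placed 36 members past an adjusted p of 0.05 as lower at 3 h, where 2.21% of the tested genes passed, and 40 at 6 h, where 2.67% passed. At both times 29 members passed, against 0.922% of the tested genes, and 13 passed at neither. The rule chose the members on these contrasts, so nothing is read from the counts. They moved with the number of arrays in the fit and with single arrays. Without either 0.5 h array, which leaves the 3 h and 6 h ratios as they were but gives the fit fewer arrays, 6 members passed at 3 h and 17 at 6 h, while 58 and 60 had an unadjusted p under 0.05. Without the 3 h array of replicate 2, 1 member passed at 3 h and 51 had an unadjusted p under 0.05, at a median log2 ratio of -0.84. At 6 h 12 passed without replicate 1 of that time, at a median of -1.01, and 0 without replicate 2, where the median was -0.62 and 34 had an unadjusted p under 0.05. Without the 3 h array of replicate 1, which stood apart in its spike-ins, 32 passed at 3 h and 47 at 6 h.

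The rule bounded 3 h and 6 h but not their difference. From 3 h to 6 h, 30 members went lower and 30 went higher, with differences from -1.10 to 0.71 and a median of 0.00, beside 0.01 over all tested genes. This even split depended on the scaling and on single arrays. With median centring and no loess 6 members were lower and 54 higher, with a median difference of 0.44 beside 0.11 over the tested genes. It was 43 lower and 17 higher without the 6 h array of replicate 1, and 15 lower and 45 higher without that of replicate 2. In limma 0 members and 0 of all tested genes passed an adjusted p of 0.05 for 6 h minus 3 h. An unadjusted p under 0.05 was found for 3 members and for 9.19% of the tested genes. The members' order in this change was not shared by the replicates. The change was negative in both replicates for 12 members, positive in both for 13 and of opposite sign for 35. The matching shares of the tested genes were not counted, so nothing is read from these numbers. Across members r was 0.06 and rho -0.06 between the replicates (n = 60 genes), while over the tested genes r was 0.31 and rho 0.35 (n = 5966). The same arrays and dyes underlie all these points. The rule bounded the means of the replicates at 3 h and at 6 h, which bears on this comparison with the tested genes.

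**Figure D4:**
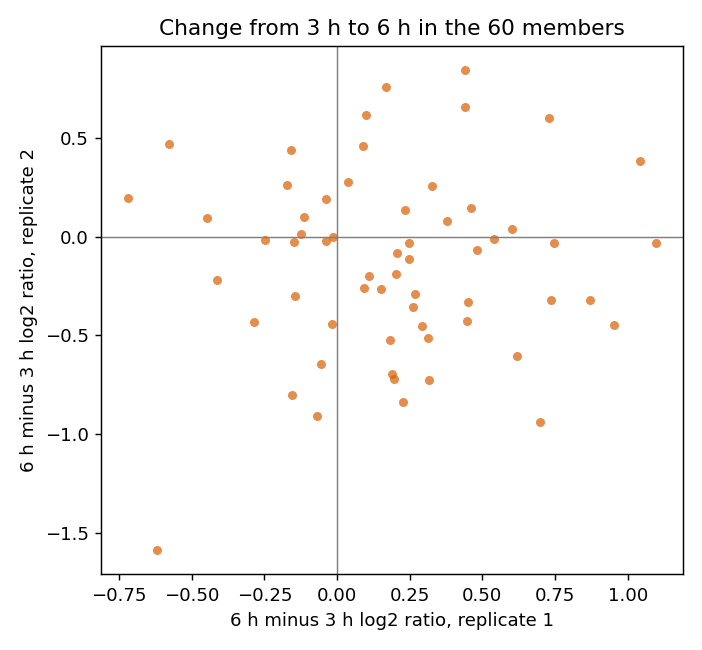
Change of the log2 ratio from 3 h to 6 h in replicate 2 against that in replicate 1, a point for each of the 60 members. The points fill all 4 quadrants, with 12 members negative in both replicates, 13 positive in both and 35 of opposite sign.

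The most negative differences of 6 h minus 3 h were those of DEHA2C06072g at -1.10 ± 0.27, DEHA2E07084g at -0.49 ± 0.24, DEHA2C04268g at -0.48 ± 0.20 and DEHA2E08030g at -0.36 ± 0.16 (moderated SE of limma, 2 arrays per time). This SE draws on the spread of all 6 arrays and of the other tested genes, not on the 3 h and 6 h arrays of the locus alone. DEHA2E07084g read -0.96 and -0.30 at 3 h and -1.03 and -1.20 at 6 h, so its change came almost wholly from replicate 2. All 4 loci moved down in both replicates, with adjusted p-values from 0.430 to 0.565 in limma that did not pass. The order was not kept without loess, where DEHA2C06072g was at 0.28, DEHA2E07084g at 0.21 and DEHA2C04268g at 0.05, all turned in sign, and DEHA2E08030g at 0.00.

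The most positive differences, with ratios nearer to zero at 6 h, were those of DEHA2D02816g at 0.71 ± 0.33, DEHA2F25058g at 0.66 ± 0.21, DEHA2G17798g at 0.64 ± 0.28 and DEHA2F18216g at 0.55 ± 0.24 (moderated SE of limma, 2 arrays per time). DEHA2F25058g read -1.28 and -1.32 at 3 h and -0.55 and -0.71 at 6 h, with the replicates close at both times. DEHA2G17798g read -0.93 and -1.71 at 3 h and -0.49 and -0.87 at 6 h. DEHA2F18216g read -1.06 and -1.56 at 3 h and -0.62 and -0.91 at 6 h. In all 4 loci both replicates moved up, and the adjusted p-values ran from 0.514 to 0.559 in limma. Without loess these differences ran from 0.94 to 1.36.

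Each gene was read by 2 probes. All 60 members were negative with either probe at both times, and 39 lay at or below -0.6 with either probe at both times. Across members the probes correlated at r = 0.81 and rho = 0.81 at 3 h and at r = 0.70 and rho = 0.62 at 6 h (n = 60 genes, both probes hybridised to the same RNA). In 4 members the probes differed by more than 0.5 at a time, named here after their values were seen. DEHA2C02464g read -0.84 and -1.43 by its probes at 3 h, and DEHA2G17798g -1.62 and -1.02. At 6 h DEHA2E16346g read -0.95 and -0.44. The other, without a locus name, read -0.28 and -1.31 at 6 h, the 1 case with a gap of more than 1.

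The members' control signals after normalization ran from 7.04 to 13.28 on the log2 scale, with a median of 8.93, beside a median of 7.35 over all tested genes. In the 66 genes that met the same 3 h and 6 h criteria with a 0.5 h mean at or below -0.4, the median was 9.32. A high control signal was thus not particular to the members. The part of this brightness in the shift between scalings was not tested. Brightness depends on the probe as well as on the transcript, so these signals are given for precision and not as levels. The brightest were DEHA2C06072g, DEHA2A01364g, DEHA2F03146g and DEHA2F09262g. DEHA2A01364g read -0.72 and -0.81 at 3 h and -0.48 and -0.84 at 6 h, and DEHA2F03146g read -0.98 and -0.37 at 3 h and -0.79 and -1.07 at 6 h. Without loess DEHA2A01364g read -1.08 and -1.62 at 3 h but -0.02 and -0.24 at 6 h. Under that scaling DEHA2F03146g read -1.25 and -0.97 at 3 h and -0.38 and -0.55 at 6 h. The dimmest were DEHA2C00440g, with stressed spots of 128.8 and 161.5 at 3 h against control spots of 174.8 and 376.8, and DEHA2G25080g.

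In the stressed channel 56 of the 60 members were well above background on both arrays at 3 h and at 6 h, and in the control channel 59 were on all 6 arrays. The exceptions in the stressed channel were DEHA2C00440g, DEHA2G25080g, DEHA2E15136g and DEHA2F15114g, each on 1 array of a time or of both times, so the ratios of these loci are less certain. None of the members was dim or saturated on both arrays of a time. The size of the fold in the dim loci changed with the handling of background. The 6 h mean of DEHA2C00440g was -0.81, but -2.72 with the scanner's processed signals and -0.54 with no background correction. For DEHA2E15136g these values were -1.27, -2.76 and -0.94. The GC content of the members' probes had a median of 38.3%, as had that of the tested genes. DEHA2E00484g was the 1 member with a probe sharing 25 bases with a probe of another gene, against 1.46% of the tested genes.

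The members with a locus name lay on all 7 nuclear chromosomes. Chromosome F held 15 of them among 1002 loci measured (1.5%) and chromosome G 6 among 908 (0.661%), beside 1.05% over all chromosomes. This spread was not tested.

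**Figure D5:**
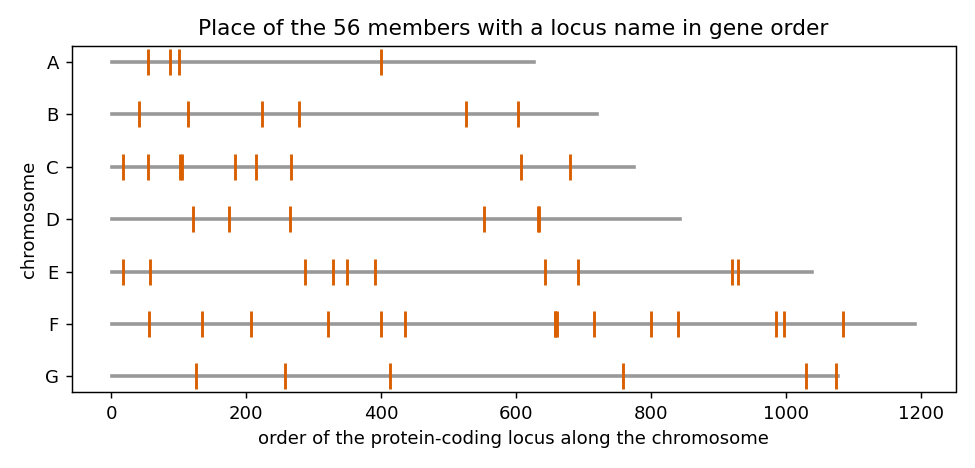
Places of the 56 members with a locus name (orange ticks) in the order of protein-coding loci along each of the 7 chromosomes (grey lines). Ticks do not run the whole length of each chromosome, and the last lies at locus 400 of 627 on A and 634 of 842 on D. On chromosome F 3 members, on C 2 and on D 2 stand close together.

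Members stood within a few loci of each other in 3 places. On chromosome F DEHA2F15048g and DEHA2F15070g were immediate neighbours, and DEHA2F15114g followed after 1 further locus. DEHA2F15070g read -0.62 and -0.04 at 0.5 h, -1.26 and -1.06 at 3 h, and -0.66 and -1.03 at 6 h, and DEHA2F15114g read -0.40 and -0.29, then -1.11 and -0.81, then -1.36 and -0.82. The locus between them, DEHA2F15092g, stayed near zero, with means of -0.19 at 3 h and -0.16 at 6 h. At 0.5 h DEHA2F15048g was positive on both arrays while its neighbour was negative on both.

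On chromosome D DEHA2D14608g and DEHA2D14652g had 1 locus between them. The means were -1.17 at 3 h and -0.90 at 6 h in the former and -0.61 and -0.70 in the latter, and DEHA2D14630g between them, too dim for the test, had 0.06 and -0.16. On chromosome C 2 loci separated DEHA2C02376g, with means of -0.84 and -0.89, from DEHA2C02464g, with -1.14 and -1.13. Those 2 loci had means of -0.36 and -0.13 at 3 h. In each of the 3 places the loci in between were less lowered than the members beside them. Those loci were not members, so the rule favours this outcome and nothing is read from it.

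Of the 108 loci that lay directly next to a member and were not members, 86 were tested. Their median log2 ratio was -0.14 at 3 h and -0.08 at 6 h, beside 0.00 and 0.01 over all tested genes with a locus name. At 3 h 2 of the 86 were lower at an adjusted p of 0.05 in limma and at 6 h 3 were. Among all tested genes 2.21% and 2.67% passed. Members were left out of the 86 but not of the tested genes, so nothing is read from this comparison. The neighbours that passed were DEHA2A02398g at both times, DEHA2F01364g at 3 h, and DEHA2E01408g and DEHA2E09482g at 6 h, named after their values were seen. DEHA2A02398g had means of -0.64 at 0.5 h, -1.02 at 3 h and -1.31 at 6 h, and so failed the rule at 0.5 h. DEHA2F01364g was at 0.53 at 0.5 h, -0.79 at 3 h and -0.16 at 6 h.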

How the data were processed

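Amplified RNA was hybridised to 6 arrays with 2 colours. The authors deposited scanner intensities (pixel medians of spot and local background, and processed signals). Per the file headers these come from Feature Extraction 9.1.3.1, as do the quality flags. The submitters' processing notes list limma, and the deposited value table matched log2 stressed-to-control ratios made without background correction. The members, lists and settings were chosen with earlier results of these data known.

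With limma 3.58.1 under R 4.3.3, normexp (offset 50) was applied to the median intensities, followed by loess on each array. Control spots had weight 0. The 18 outlier values among gene probes were left out. Ratios were turned so that positive means higher in stressed RNA, and a gene's 2 probes were averaged. A gene was tested where 2 or more of a probe's 12 channel values passed the scanner's background flag. One limma fit without a replicate block gave a coefficient per time and 6 h minus 3 h, with Benjamini-Hochberg adjustment over 5966 genes. It was checked on simulated data.

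Unversioned accessions gave locus names from the table of assembly ASM644v2 for 5348 of 6320 genes. The array files name no assembly, so the table served for names and gene order only. Named members were the 10 lowest, 4 on each side of the bound, 4 with the largest change each way from 3 h to 6 h, the 4 brightest, the 2 dimmest and adjacent loci. Protein products, similarity and promoter motifs were not analysed here.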

Additional observations from a re-analysis of the deposited data

Results flagged for a closer look

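For 3 members the log2 ratio, after loess, was above zero on both 0.5 h arrays and below zero on all 3 h and 6 h arrays. They were DEHA2B12210g with means of 0.46 at 0.5 h, -0.95 at 3 h and -1.22 at 6 h, DEHA2F15048g with 0.39, -1.01 and -0.74, and DEHA2E08030g with 0.11, -0.60 and -0.96. The rule for members favours this pattern, and its share among the tested genes was not counted. Without loess other members showed it too. Among them was DEHA2A02090g, with 0.48 and 0.39 at 0.5 h, -1.74 and -2.22 at 3 h, and -1.32 and -0.91 at 6 h. The difference between 0.5 h and the later times was not tested.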

How the results depend on the processing

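The number of genes meeting the rule was 60 and stayed within 1.5 times of that in 14 of 16 alternatives. Among these were changes of the filter on dim probes or of the fit, which leave the ratios as they were and could not move the number. With median centring and no loess the number was 50, 25 of them members. It was 153 with the processed signals, 46 of them members, and between 33 and 87 with an array left out. It was 40 with no background correction, 36 of them members, and 46 with the deposited values, 39 of them members. In limma the processed signals gave 21 members called lower at 3 h, uncorrected background gave 5 and the deposited values 3, and the number was between 1 and 32 with an array left out. At 6 h these settings gave 25, 22 and 19, 12 with median centring and no loess, and between 0 and 47 with an array left out. The members' median at 3 h was -1.27 with the processed signals, -1.06 with median centring, -0.74 with the deposited values and -0.73 with uncorrected background, and -0.89 to -0.84 with an array left out. At 0.5 h it was -0.27 with the processed signals and 0.11 with median centring, and at 6 h -1.12 with the processed signals. No setting called a member between 3 h and 6 h, where 1 to 12 had an unadjusted p under 0.05. The causes of these shifts were not tested.

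Over all tested genes 5 were called at 0.5 h, 132 lower and 223 higher at 3 h, and 159 lower and 285 higher at 6 h. With no background correction these were 1, 16, 41, 88 and 167, and with the deposited values 1, 11, 33, 83 and 153. The processed signals gave 3 at 0.5 h and 141 higher at 3 h. Median centring gave 127 higher at 3 h, beside 107 lower, and 50 lower at 6 h, beside 412 higher. A trended and robust moderation gave 340 higher at 3 h. With an array left out the counts ran from 0 to 7 at 0.5 h, from 8 to 388 lower and 20 to 637 higher at 3 h, and from 0 to 273 lower and 0 to 496 higher at 6 h. Where 0 were called, 295 genes at 0.5 h, and 240 lower and 422 higher at 6 h, had an unadjusted p under 0.05.

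Same-numbered arrays deviated together across genes, with correlations of 0.21, 0.35 and 0.32 for the 3 pairs of times. The numbers also split the dyes and the places on the slide, and no label ties arrays of different times to a common culture. With a replicate block limma called 17 genes at 0.5 h, 360 lower and 494 higher at 3 h and 292 lower and 443 higher at 6 h, and 54 and 53 members lower at 3 h and 6 h. All 6 arrays lie on 1 slide and share 1 scan, so a slide block was not run.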
